A study of Mus musculus with 6 samples.

Results

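The nuclear genes for the subunits of respiratory complexes III and IV and of ATP synthase (complex V) were examined in RNA-seq libraries of mouse peritoneal macrophages. Members were the protein-coding genes whose symbol starts with Uqcr, Cox4i, Cox5, Cox6, Cox7, Cox8 or Atp5. The rule found 44 of the 54532 genes in the table, and 36 of the 44 passed the filter on low values, a mean of at least 1 FPKM (fragments scaled for gene length and library size) over all libraries. These were 8 genes of complex III, 11 of complex IV and 17 of complex V. Usmg5, which encodes a further small ATP synthase subunit under an unrelated symbol, was not caught by the rule and was not used here.

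The macrophages came from wild-type (WT) C57BL/6J mice, were elicited with thioglycolate and were cultured, so all groups share elicitation and culture. Control cells were untreated. Model cells were given 500 ng/mL LPS, a primer of the NLRP3 inflammasome, for 5.5 h and then 2 mM ATP, the trigger, for 0.5 h. MUS cells had identical LPS and ATP plus 50 µM muscone, a macrocyclic ketone of musk, added 5 h after LPS and 0.5 h before ATP. Each group had 2 libraries, which the labels place in batch 1 and batch 2. The sources used here do not say whether these were separate animals or cultures, so p-values measure only the spread between these libraries, which may be technical.

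Complex III passes electrons from ubiquinol to cytochrome c, and complex IV passes them on to oxygen, both while moving protons across the inner mitochondrial membrane. ATP synthase lets the protons return through a rotating ring of c subunits in its membrane part (Fo) and couples that rotation to ATP synthesis in its catalytic part (F1). A few core subunits of these complexes are encoded by mitochondrial DNA, and all the others by nuclear genes. Macrophages stimulated with LPS are known for a shift from respiration toward glycolysis.

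Subunit c of the ring is encoded by 3 expressed nuclear genes, Atp5g1, Atp5g2 and Atp5g3. The reading frames of the 3 genes end in a stretch that differs in letters but not in the protein it encodes, and the results below turn on how the genes share the fragments. These are the last 228 bases of the reading frames, stop codon included, from GENCODE M21 transcripts on build GRCm38, all on the minus strand and each in 2 exons. Capitals mark the 58 positions at which the 3 genes do not all have the same base.
Atp5g1, chr11:96073104-96073635: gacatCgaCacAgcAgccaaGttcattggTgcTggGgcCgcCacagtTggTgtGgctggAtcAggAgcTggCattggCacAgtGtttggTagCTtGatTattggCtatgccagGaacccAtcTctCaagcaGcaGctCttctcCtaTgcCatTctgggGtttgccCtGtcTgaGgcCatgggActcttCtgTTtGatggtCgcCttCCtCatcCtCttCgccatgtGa
Atp5g2, chr15:102663014-102665166: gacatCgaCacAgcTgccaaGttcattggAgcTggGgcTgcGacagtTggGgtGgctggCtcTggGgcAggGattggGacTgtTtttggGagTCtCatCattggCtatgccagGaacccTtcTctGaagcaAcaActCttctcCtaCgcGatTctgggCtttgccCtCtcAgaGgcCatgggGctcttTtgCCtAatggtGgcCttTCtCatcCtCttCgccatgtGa
Atp5g3, chr2:73908593-73909296: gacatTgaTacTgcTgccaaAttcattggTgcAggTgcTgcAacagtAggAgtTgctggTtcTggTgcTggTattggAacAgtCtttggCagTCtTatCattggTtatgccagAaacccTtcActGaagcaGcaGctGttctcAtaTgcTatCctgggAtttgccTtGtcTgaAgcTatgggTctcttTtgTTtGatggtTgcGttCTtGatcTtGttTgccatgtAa
All 76 codons of the stretch encode the same residue, or the stop, in the 3 genes. Atp5g1 and Atp5g2 shared 85.1% of the bases, Atp5g1 and Atp5g3 79.8%, and Atp5g2 and Atp5g3 78.5%. The GC content of the stretch was 54.4% in Atp5g1, 55.3% in Atp5g2 and 45.2% in Atp5g3.

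The 6 libraries held between 15526321 and 17135442 fragments on genes, as recovered from the FPKM values. The library scale behind the FPKM was 1.45 and 1.34 times these fragments in the Control libraries and between 0.909 and 0.998 times in the others, a difference between groups that the sources used here do not explain. Scaled by the recovered fragments, the log2 fold change of all genes had its median at -0.40 in Model vs. Control and at -0.39 in MUS vs. Control, against 0.04 for each on FPKM. In bulk RNA, fewer cells of a type and less RNA per cell cannot be told apart. Of the macrophage markers, 6 of 6 were tested, and Lyz2, the macrophage lysozyme, had between 7275 and 12007 FPKM. Of these 6, the Fc receptor gene Fcgr1 was called higher and the CSF1 receptor gene Csf1r lower in both comparisons with Control. Of the markers of other cells, 0 of 4 B cell, 0 of 4 mast cell and 0 of 3 erythroid markers passed the filter. The neutrophil list summed to 13.5 and 30.6 FPKM in Control, 110 and 56.5 in Model, with 64.0 and 50.3 in MUS, nearly all from S100a8, the 1 of its 5 genes that passed the filter, and 3 were at 0 in all libraries. S100a8 was called higher in Model vs. Control. The lymphocyte list summed to between 74.7 and 164 FPKM, nearly all from Il7r, 1 of 8 genes, and the eosinophil list to between 1.23 and 4.06 FPKM, from Siglecf, 1 of 4 genes, with 0 calls in either list. The part of these cells in the results was not tested.

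The members were abundant transcripts. Control libraries summed to 1400 and 1348 FPKM over all members, Model libraries to 2374 and 1306, and MUS libraries to 1524 and 1433. Model replicate 1 stood above the other libraries in this sum, which carries the library scale. As a share of all FPKM, the members made up 0.599% and 0.567% in Control, 0.606% and 0.433% in Model, with 0.471% and 0.469% in MUS. By that share Model replicate 1 was close to Control, and Model replicate 2 was the lowest. Of the fragments on genes they took 0.349% and 0.319%, 0.382% and 0.251%, and 0.284% and 0.278%, in the same order. The median member lay between the 83.6 and 90.4 percentiles of the genes tested, highest in the Control libraries and lowest in Model replicate 2. Atp5a1, the catalytic part's alpha subunit, had the highest mean among ATP synthase genes, at 115 and 132 FPKM in Control, 205 and 147 in Model, with 136 and 138 in MUS. Among complex IV genes Cox6a1 had the highest mean, and among complex III genes Uqcrfs1, the Rieske iron-sulphur protein. At the low end stood Uqcr11, Cox5b and Atp5s, the last of which encodes coupling factor B and had between 0.845 and 2.55 FPKM. The complex III genes Uqcrh, Uqcr10, Uqcrc2, Uqcrc1 and Uqcrq, among them the core proteins Uqcrc1 and Uqcrc2, lay between 7.05 and 79.9 FPKM. In complex IV, Cox4i1, Cox7b, Cox6b1, Cox5a and Cox6c lay between 12.8 and 126 FPKM, and Cox5b between 4.46 and 10.6. In ATP synthase, the catalytic beta subunit Atp5b lay between 72.7 and 125 FPKM. The rotating shaft's gamma and epsilon subunits Atp5c1 and Atp5e, the stalk's subunit b Atp5f1 and the small membrane subunit Atp5mpl lay between 15.98 and 77.2 FPKM, and subunit g, Atp5l, between 6.56 and 15.4.

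**Figure D1:**
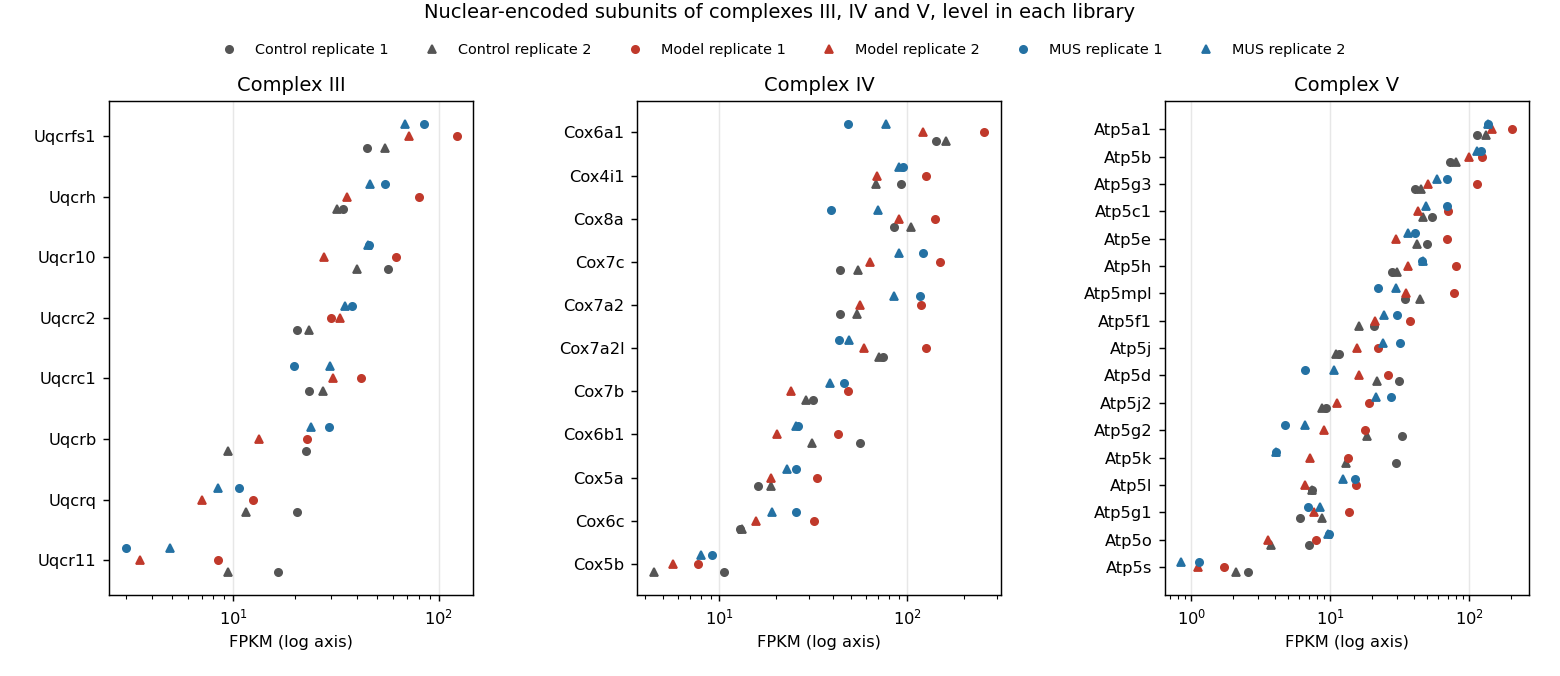
FPKM on a log axis of the 36 tested subunit genes in each of the 6 libraries, by complex, with 1 symbol per library. Model replicate 1 is the right-most symbol for many genes, and the 2 MUS libraries are the lowest for Atp5k, Atp5g2, Atp5d and Cox6a1.

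The 8 members that did not pass the filter were mainly tissue isoforms. Cox7b2, Cox8b and Cox8c were at 0 in every library, where a count of 0 still allows up to 3 fragments, equal to between 0.131 and 0.213 FPKM for a gene of 1 kb. These limits cover counting error only. A second gene model named Atp5o was also listed at 0, but 89.8% of its 50-base stretches occur in other genes, mainly Donson, and it overlaps several genes on its own strand, so its 0 gives no limit on its level. Cox4i2, Cox6a2 and Cox6b2, the lung, muscle and testis isoforms, had at most 9 fragments in a library. Cox7a1, the heart and muscle isoform, had 1 fragment in each Control library, 11 and 5 fragments in Model and 4 and 3 in MUS. Cox4i1 made up between 99.7% and 100% of the summed Cox4i FPKM, Cox6a1 between 99.3% and 100% of the Cox6a FPKM and Cox6b1 between 98.1% and 100% of the Cox6b FPKM.

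The question of the first comparison was what LPS and ATP did to these transcripts. In Model vs. Control, 0 of the 36 tested members were called at an adjusted p of at most 0.05 (limma, Benjamini-Hochberg over all 9794 genes), against 17.3% of all genes tested. At an unadjusted p under 0.05 there were 3 members, Uqcrfs1, Uqcr11 and Atp5j, against 33.6% of all genes. The median member log2 fold change was 0.33, against 0.04 over all genes, and 26 of 36 members were above 0. Both Model libraries were above both Control libraries for 15 members, which is 41.7% of them against 32.6% of all genes, and below for 3 members, 8.33% against 28.5%. The medians were 0.36 for complex III, 0.24 for complex IV and 0.41 for complex V.

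These values rested on Model replicate 1. It was higher than Model replicate 2 for 35 of the 36 members, by a median of 0.85 on the log2 scale, whereas the median over all genes was 0.02. In Control replicate 1 was higher for 21 members, and in MUS for 24. Without Model replicate 1 the median over members became -0.14, and within batches it was 0.76 in batch 1 and -0.03 in batch 2. Without Model replicate 2, 3 members were called, Atp5g3, Atp5h and Cox7c, against 12.7% of all genes. Scaled by the recovered fragments, 4 members were called against 28.4% of all genes, all lower, namely Atp5g2, Atp5k, Atp5s and Uqcr11, and the median was -0.21, above the -0.40 of all genes. The cause of the difference between the Model libraries was not tested.

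**Figure D2:**
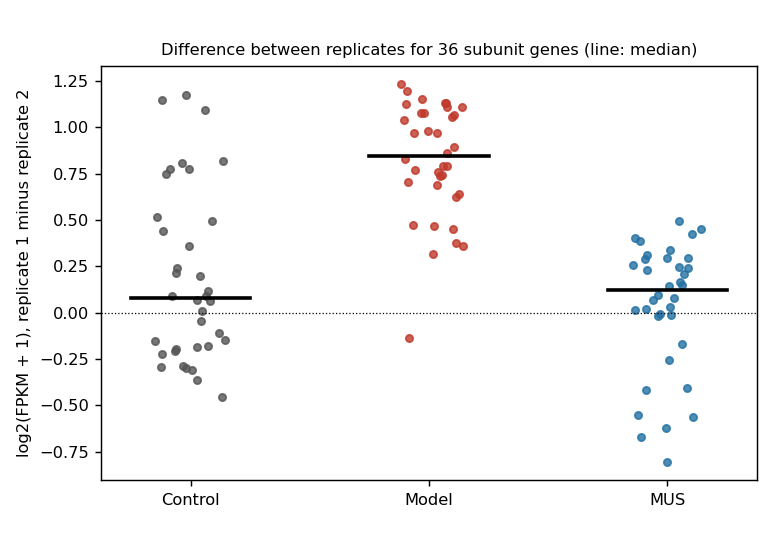
Difference between replicate 1 and replicate 2 in log2(FPKM + 1) for each of the 36 tested subunit genes (points) in each group, with the median as a line. In Model 35 of 36 points lie above 0, with a median of 0.85, while Control and MUS points lie on both sides of 0.

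The 3 highest log2 fold changes in Model vs. Control were those of Cox7c, Uqcrfs1 and Atp5h. Cox7c, a small subunit of complex IV, had 44.0 and 54.7 FPKM in Control, 149 and 63.1 in Model, with 122 and 90.4 in MUS. Both Model libraries were above Control, 1 of them by little, and the log2 fold change was 0.97 ± 0.45 (SE, adjusted p = 0.178, limma). Uqcrfs1, whose iron-sulphur cluster takes the electron from ubiquinol, had 44.6 and 54.9 FPKM in Control, 122 and 71.2 in Model, with 84.5 and 68.7 in MUS. Its log2 fold change was 0.90 ± 0.36 (SE, adjusted p = 0.126, limma), with no overlap between the groups. Atp5h, subunit d of the stalk that holds F1 in place, had 27.8 and 30.04 FPKM in Control, 80.2 and 36.2 in Model, with 45.8 and 46.2 in MUS. Its log2 fold change was 0.88 ± 0.39 (SE, adjusted p = 0.168, limma). Of the 50-base stretches of their transcripts, 22.1% in Cox7c and 19.9% in Atp5h also occur in other genes, mainly Gm10012 and Gm10250. The levels of Cox7c and Atp5h are uncertain where reads could be split. The 3 lowest were Uqcr11 (-1.05 ± 0.42, adjusted p = 0.134), Atp5k (-0.94 ± 0.43, adjusted p = 0.174) and Atp5g2 (-0.90 ± 0.40, adjusted p = 0.167), and they are described by library with the next comparison.

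MUS vs. Control, which compares LPS, ATP and muscone together with no treatment, gave the calls among the members. ATP synthase genes Atp5k, Atp5g2 and Atp5d and the complex III gene Uqcr11 fell, with log2 fold changes between -2.03 and -1.48, and ATP synthase genes Atp5j2 and Atp5j rose, by 1.35 and 1.22. These 6 of 36 members (16.7%) compare with 24.4% of all genes tested, so the members were called at a share below the background. The 2 that rose were 5.56% of the members against 13% of all genes, and the 4 that fell were 11.1% against 11.4%. All 6 also passed an absolute log2 fold change above 1, as did 20.2% of all genes. By complex, 5 of 17 complex V genes, 1 of 8 complex III genes and 0 of 11 complex IV genes were called, and at an unadjusted p under 0.05 there were 11 members, 3 of them of complex IV, against 39.7% of all genes.

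Atp5k, subunit e of the membrane part, helps to hold 2 ATP synthase complexes together as a dimer. It had 29.96 and 12.98 FPKM in Control, 13.5 and 7.12 in Model, with 4.08 and 4.10 in MUS. Both MUS libraries were the lowest of the 6, one Model library lay between the Control libraries, and the log2 fold change in MUS vs. Control was -2.03 ± 0.43 (SE, adjusted p = 0.0173, limma). The gene lies at chr5:108433244-108434448 on the minus strand (GRCm38). Atp5g2, one of the subunit c genes shown above, had 32.7 and 18.3 FPKM in Control, 17.7 and 9.06 in Model, with 4.70 and 6.54 in MUS. The 3 groups did not overlap, in the order Control, Model and MUS, and the log2 fold change was -1.96 ± 0.40 (SE, adjusted p = 0.0153, limma). The value is uncertain where reads could be split, since 38.3% of the 50-base stretches of its transcripts also occur in other genes, mainly Gm10175.

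Atp5d, subunit delta of the central stalk of F1, had 31.3 and 21.6 FPKM in Control, 25.8 and 16.2 in Model, with 6.52 and 10.6 in MUS. Both MUS libraries were below all 4 others, and Control and Model overlapped. The log2 fold change in MUS vs. Control was -1.54 ± 0.35 (SE, adjusted p = 0.0230, limma). Atp5d overlaps Cbarp on the other strand, and the library protocol names no strand marking, so reads of the pair may not be told apart there. Uqcr11, the smallest complex III subunit, had 16.5 and 9.41 FPKM in Control, 8.40 and 3.52 in Model, with 2.99 and 4.90 in MUS. Both MUS libraries were below both Control libraries and overlapped with Model, and the log2 fold change was -1.48 ± 0.42 (SE, adjusted p = 0.0447, limma). The MUS values rest on 29 and 51 fragments.

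Atp5j2, subunit f of the membrane part, had 9.26 and 8.65 FPKM in Control, 18.9 and 11.2 in Model, with 27.4 and 21.5 in MUS. The groups did not overlap, in the order Control, Model and MUS, and the log2 fold change in MUS vs. Control was 1.35 ± 0.30 (SE, adjusted p = 0.0215, limma). Atp5j, coupling factor 6 of the outer stalk, had 11.6 and 11.05 FPKM in Control, 21.9 and 15.6 in Model, with 31.9 and 24.1 in MUS. It followed the same order without overlap, with a log2 fold change of 1.22 ± 0.28 (SE, adjusted p = 0.0220, limma). Atp5j overlaps Gabpa on the other strand, and 8.89% of its 50-base stretches are shared, mainly with that gene. Cox7c, with the next highest value, had a log2 fold change of 1.08 ± 0.45 (SE, adjusted p = 0.121, limma).

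The 2 genes of subunits e and f, both small proteins of the same membrane part, thus moved in opposite directions. The log2 ratio of Atp5j2 to Atp5k FPKM took the values -1.69 and -0.59 for Control, 0.49 and 0.65 for Model, with 2.75 and 2.39 for MUS. The ratio does not depend on the scale of a library, and the groups did not overlap. Atp5k had the lowest and Atp5j2 the highest log2 fold change of the 36 members in MUS vs. Control. The pair was thus picked from these values, and the separation of MUS from Control follows from that choice. Between 2 groups of 2 libraries, an exact permutation test cannot give a two-sided p under 0.333. For that reason, and because the pair was picked from these libraries, the ratio was not tested.

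**Figure D3:**
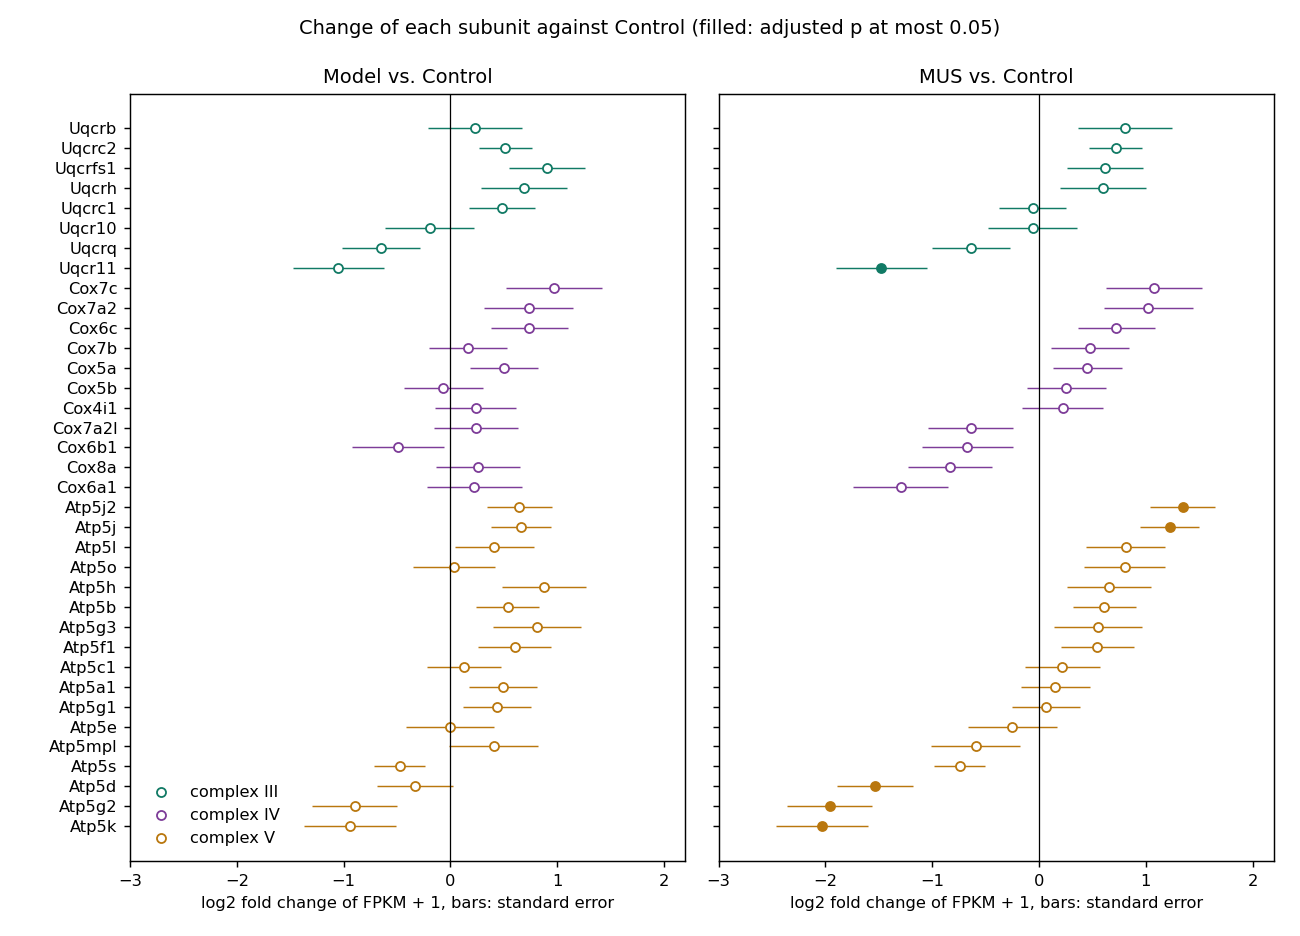
Log2 fold change of FPKM + 1 against Control (points) with its standard error (bars) for the 36 tested subunit genes, for Model (left) and MUS (right), coloured by complex. In MUS 6 points are filled, which marks an adjusted p of at most 0.05, and 5 of these are genes of complex V.

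How firmly the 6 calls stand depended on the libraries, on the scale and, for Uqcr11, on the fit. Without Control replicate 1, without MUS replicate 1 or without MUS replicate 2 the calls of the members were lost. Of all genes, 11%, 1.88% and 7.34% were called in these 3 cases, so calls were lost across the series and not among the members alone. Without Control replicate 2 there were 5 calls, with 25.3% of all genes called. All 6 genes kept their direction in both batches. In batch 1 and batch 2 the MUS minus Control difference was -2.61 and -1.46 for Atp5k, -2.57 and -1.35 for Atp5g2, and -2.10 and -0.97 for Atp5d. It was -2.13 and -0.82 for Uqcr11, 1.47 and 1.22 for Atp5j2, and 1.38 and 1.06 for Atp5j. Scaled by the recovered fragments, 8 members were called against 33.8% of all genes, 0 higher and 8 lower, instead of 2 higher and 4 lower. On that scale Atp5j2 and Atp5j remained above 0, at 0.85 (adjusted p = 0.0543, limma) and 0.72 (adjusted p = 0.0675, limma). Quantile normalization gave 9 calls against 24.1% of all genes. With all 6 libraries, Uqcr11 lost its call when the limma fit had no trend (adjusted p = 0.0504). It also lost it with a pseudocount of 0.1 in place of 1 (adjusted p = 0.0521, limma) and with voom on the recovered fragments (adjusted p = 0.0519, limma). The called ATP synthase genes kept their calls in these 3 fits.

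Most members separated MUS from Control without being called. Both MUS libraries were above both Control libraries for 18 members, which is 50% against 39.6% of all genes, and below for 12 members, 33.3% against 33.8%. The other 6, Uqcr10, Uqcrc1, Cox4i1, Cox5b, Atp5c1 and Atp5g1, overlapped. The median log2 fold change was 0.24 against 0.04 over all genes, with 0.27 for complex III, 0.26 for complex IV and 0.22 for complex V. Scaled by the recovered fragments, it was -0.27, against -0.39 over all genes. The members above Control included Cox7c, Cox7a2 and Cox6c, and those below included Cox6a1, Cox8a, Cox6b1 and Cox7a2l, all of complex IV and on the same side of 0 with either scale and with quantile normalization. The side depended on the scale for other members above Control. The alpha subunit gene Atp5a1 had a log2 fold change of 0.15 on FPKM, -0.38 scaled by the recovered fragments and -0.58 with quantile normalization. In the same order Atp5b, the catalytic beta subunit, had 0.61, 0.077 and -0.11, and Uqcrfs1 had 0.61, 0.083 and -0.022.

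The promoters of the 6 called members were searched for 3 short motifs known from genes of oxidative phosphorylation, on both strands of the window from 250 bases before to 50 bases after each RefSeq start (GRCm38.p6). The motifs were the cores of the sites of NRF1 (GCGCATGC), of ETS factors such as GABP (CCGGAAG) and of YY1 (AAGATGGCG), and 29 of the 36 tested members had a promoter there, by symbol or synonym. The NRF1 core was in 6 of the 29 (20.7%, against 6.51% of 7129 tested genes with a promoter and 3.05% of all 27025 genes), the ETS core in 10 (34.5%, against 22.8% and 9.93%) and the YY1 core in 2 (6.90%, against 4.25% and 1.64%). Of the 4 members that fell, Atp5k, Atp5g2 and Uqcr11 held the NRF1 core, and the 2 holders of the YY1 core were Atp5j and Atp5j2, the 2 that rose. The motifs were looked up with these changes known, the other NRF1 holders Atp5l, Cox6a1 and Uqcrc1 were not called, and a match is a run of letters and not a site. These windows of 30 bases show the matches of the called genes, with the motif in capitals. The NRF1 core overlaps its own reverse complement, so Atp5k and Atp5g2 match on both strands, and the match of Uqcr11 reads as the reverse complement.
Atp5k (NRF1 core), chr5:108434431-108434460, minus strand: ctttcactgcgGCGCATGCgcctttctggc
Atp5g2 (NRF1 core), chr15:102671071-102671100, minus strand: tggctccggccGCGCATGCgcagagccttc
Uqcr11 (NRF1 core), chr10:80406807-80406836, minus strand: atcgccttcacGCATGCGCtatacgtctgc
Atp5j (YY1 core), chr16:84835045-84835074, minus strand: aagtgtaggaAAGATGGCGgagtcttagct
Atp5j2 (YY1 core), chr5:145191499-145191528, minus strand: ccaggacttcAAGATGGCGtcactcggtga
The motif starts 50 bases before the RefSeq start in Atp5k, 42 in Atp5g2, 4 in Uqcr11 and 88 in Atp5j, and at base 24 after it in Atp5j2. In Atp5j2 the match includes the start codon of the reading frame, which begins at position 145191515. The ETS core was also in the windows of Atp5k, Uqcr11 and Atp5j. Among the genes of these factors, Nrf1 had between 1.72 and 2.55 FPKM, Yy1 between 13.9 and 18.4 and Gabpa between 9.16 and 11.2, and none of the 3 was called in any comparison. Gabpb1, the partner of Gabpa, had 1.97 and 3.83 FPKM in Control, 7.12 and 5.71 in Model, with 8.45 and 6.52 in MUS, and rose in MUS vs. Control by 1.15 ± 0.29 (SE, adjusted p = 0.0304, limma). It was 1 of 8 tested transcription factors of the pathway called there, against 24.4% of all genes. In Model vs. Control 0 of 8 were called, against 17.3%.

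In MUS vs. Model, which isolates the addition of muscone, 0 of the 36 members were called, as were 0% of all 9794 genes. At an unadjusted p under 0.05 there were 6 members, 16.7% against 8.42% of all genes. All 6 were lower in MUS, namely Cox6a1, Cox8a, Atp5mpl, Atp5d, Atp5g2 and Atp5k. Both MUS libraries were above both Model libraries for 6 members (16.7% against 21.2%) and below for 9 (25% against 21%). The median was -0.07, against 0.01 over all genes.

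The 3 lowest values were those of Cox6a1, Atp5d and Cox8a. Cox6a1, a regulatory subunit of complex IV, had 142 and 161 FPKM in Control, 257 and 121 in Model, with 48.2 and 77.3 in MUS. Both MUS libraries were below all the others, and the log2 fold change in MUS vs. Model was -1.52 ± 0.45 (SE, adjusted p = 0.463, limma). Atp5d had -1.20 ± 0.35 (SE, adjusted p = 0.463, limma). Cox8a, a small subunit of complex IV, had 84.98 and 104 FPKM in Control, 140 and 90.7 in Model, with 39.5 and 69.6 in MUS, again with both MUS libraries lowest. Its log2 fold change was -1.09 ± 0.39 (SE, adjusted p = 0.508, limma).

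The 3 highest values were those of Atp5o, Atp5j2 and Uqcrb. Atp5o, the oligomycin sensitivity protein at the top of the outer stalk, had 7.07 and 3.72 FPKM in Control, 7.87 and 3.53 in Model, with 9.83 and 9.68 in MUS, and a log2 fold change of 0.76 ± 0.38 (SE, adjusted p = 0.675, limma). Of its 50-base stretches 41.6% occur in other genes, so its level is uncertain. Atp5j2 had 0.70 ± 0.30 (SE, adjusted p = 0.609, limma). Uqcrb, a complex III subunit near the ubiquinone site, had 22.6 and 9.43 FPKM in Control, 22.8 and 13.3 in Model, with 29.2 and 23.8 in MUS, and a log2 fold change of 0.57 ± 0.44 (SE, adjusted p = 0.787, limma). The Control libraries of Uqcrb differed more from each other than MUS did from Model. Of the 50-base stretches of Uqcrb 25.5% occur in other genes, mainly Gm16089, so its level is uncertain too.

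The sign of the median in this comparison followed the Model library kept. Without Model replicate 1 it was 0.34, with 26 of 36 members above 0, and without Model replicate 2 it was -0.50, with 6 of 36 above 0. Within batch 1 the median was -0.42 and within batch 2 it was 0.25. Either choice leaves 1 Model library, so only the medians are given.

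The make-up of subunit c by gene differed between the groups. Atp5g2 made up 41.1% and 25.3% of the summed FPKM of the 3 genes in Control, 12.2% and 13.4% in Model, with 5.81% and 8.93% in MUS. Atp5g3 made up 51.3% and 62.6%, 78.5% and 75.3%, and 85.6% and 79.5% in the same order. Atp5g1 lay between 7.62% and 12.05%. Control, Model and MUS did not overlap for the first pair of genes. The summed level of the 3 genes was 79.6 and 72.2 FPKM in Control, 145 and 67.5 in Model, with 80.9 and 73.2 in MUS. On FPKM, Control and MUS thus overlapped in the sum while the parts differed. The sum, unlike the shares, depends on the library scale, which differed between Control and MUS. Scaled by the recovered fragments, the log2 fold change in MUS vs. Control was 0.02 for Atp5g3, -0.42 for Atp5g1 and -2.47 for Atp5g2. The overlap in the sum is therefore given for FPKM only. Atp5g3 itself had 40.8 and 45.2 FPKM in Control, 114 and 50.9 in Model, with 69.3 and 58.2 in MUS, and was not called in any comparison. The shares were given no test, since the limit of a permutation test between 2 groups holds here too and the genes were chosen with earlier results known.

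**Figure D4:**
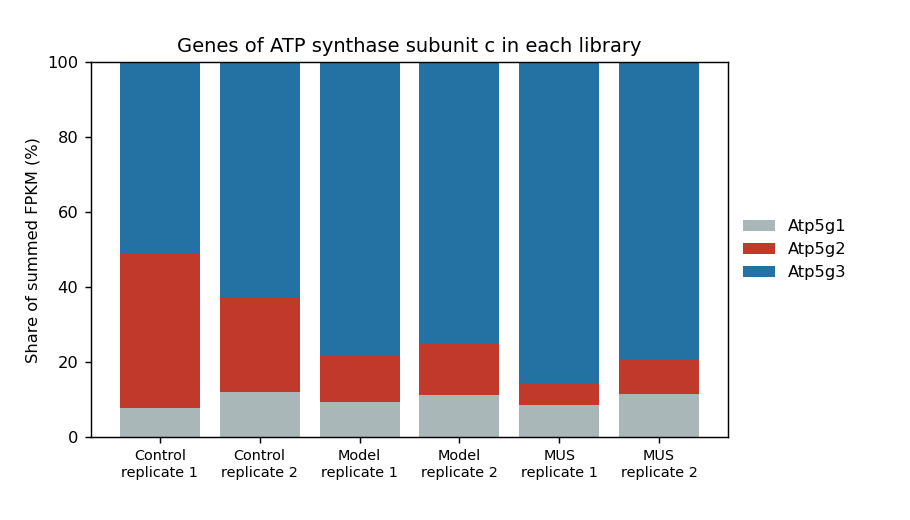
Share in percent of each subunit c gene in the summed FPKM of Atp5g1, Atp5g2 and Atp5g3 in each library (stacked bars). The Atp5g2 part is between 25.3% and 41.1% in Control, between 12.2% and 13.4% in Model and between 5.81% and 8.93% in MUS.

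The Cox7a set also differed. Cox7a2l, which encodes a relative of Cox7a that joins complexes III and IV in supercomplexes, made up 62.9% and 56.7% of the summed Cox7a FPKM in Control, 51.1% and 50.9% in Model, with 27.0% and 36.4% in MUS. Cox7a2, the isoform of most tissues, made up 37.1% and 43.3%, 48.3% and 48.6%, and 72.7% and 63.4%. The 3 groups did not overlap in either share, and Cox7a1 was under 1% throughout, with at most 0.594%. Neither gene was called on its own. In Cox7a2l 13.8% of the 50-base stretches occur in other genes, mainly Gm6969, and in Cox7a2 0%, so the shares are uncertain where reads could be split. Cox7a2l had 74.4 and 70.9 FPKM in Control, 125 and 58.7 in Model, with 43.6 and 49.0 in MUS, and Cox7a2 had 43.8 and 54.1, 119 and 56.1, and 117.1 and 85.3.

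Base composition moved with these changes. Across the 36 members, the log2 fold change and the GC content of the protein-coding transcripts had a Pearson r of -0.46 in Model vs. Control, -0.52 in MUS vs. Model and -0.60 in MUS vs. Control. Across the 9785 tested genes with a GC value, r was -0.19, -0.34 and -0.32. These are correlations across genes of the same libraries, which are not independent replicates, and the comparisons share libraries. With log2 gene length, r in MUS vs. Control was 0.45 across members and -0.05 across all genes, and the median member was 1715.5 bases long, against 3910 for all genes. Of the called genes, Atp5d (60.7% GC), Uqcr11 (58.9%), Atp5g2 (56.8%) and Atp5k (54.5%) fell, and Atp5j2 (52.4%) and Atp5j (51.2%) rose.

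A correction of each library for GC, chosen after seeing the data, left Atp5k (-1.88, adjusted p = 0.0281, limma), Atp5g2 (-1.61, adjusted p = 0.0302, limma), Atp5j2 (1.33, adjusted p = 0.0272, limma) and Atp5j (1.12, adjusted p = 0.0314, limma) called in MUS vs. Control. Atp5d (-0.84, adjusted p = 0.0905, limma) and Uqcr11 (-0.94, adjusted p = 0.135, limma) were not called with it, and Atp5s was (-0.98, adjusted p = 0.0323, limma), so that 5 members were called against 21.2% of all genes. The part of GC content in the values themselves was not tested beyond this.

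**Figure D5:**
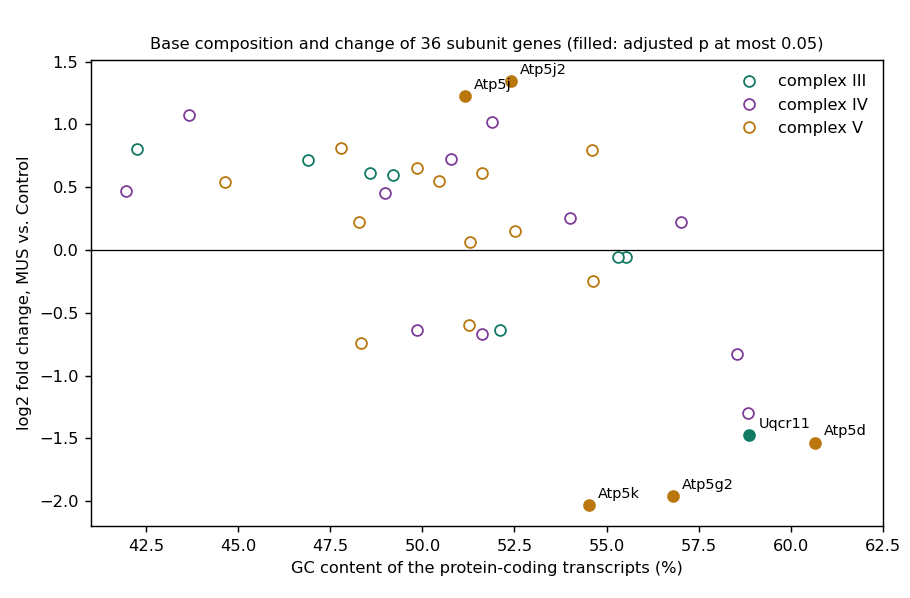
Log2 fold change in MUS vs. Control against the GC content of the protein-coding transcripts for the 36 tested subunit genes, coloured by complex, with filled points for an adjusted p of at most 0.05. The 4 genes that fell have 54.5% GC or more, and the 2 that rose have 52.4% or less.

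Genes of the same complexes with symbols outside the rule, and the electron carrier gene Cycs, were also measured. AA467197, whose product is a relative of the complex IV component Ndufa4 and can take its place, had 1.82 and 13.5 FPKM in Control, 875 and 311 in Model, with 575 and 419 in MUS. It rose in Model vs. Control by 6.35 ± 0.81 (SE, adjusted p = 0.00450, limma) and in MUS vs. Control by 6.27 ± 0.81 (SE, adjusted p = 0.00385, limma), and both comparisons share the Control libraries. Ndufa4 itself had between 20.8 and 36.3 FPKM and was not called. Cycs, the cytochrome c that carries electrons between the complexes, had 4.64 and 3.79 FPKM in Control, 12.2 and 8.02 in Model, with 14.6 and 14.3 in MUS, and rose in both comparisons with Control, by 1.07 ± 0.26 (SE, adjusted p = 0.0324, limma) and 1.57 ± 0.26 (SE, adjusted p = 0.00772, limma). These were 2 of 4 tested genes of this list, against 17.3% of all genes called in Model vs. Control and 24.4% in MUS vs. Control. The list was chosen with earlier results known, includes Cycs and leaves out Usmg5. Cyc1, cytochrome c1 of complex III, had between 13.4 and 35.7 FPKM and was not called.

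Some partners encoded by mitochondrial DNA fell. Of the 5 tested, mt-Cytb and mt-Co2 were called lower in Model vs. Control and mt-Cytb, mt-Co2 and mt-Atp6 in MUS vs. Control, with 0 of 5 in MUS vs. Model. mt-Cytb, the cytochrome b of complex III, had 1255 and 1027 FPKM in Control, 287 and 316 in Model, with 126 and 161 in MUS. The other called genes were far lower. mt-Co2 had 16.9 and 15.8 FPKM in Control, 7.67 and 4.72 in Model, with 1.26 and 2.07 in MUS. mt-Atp6 had 8.93 and 10.98, 4.47 and 5.31, and 0.680 and 1.54 in the same order. mt-Co1 had between 816 and 2510 FPKM and was not called. Complex I, the other large respiratory complex with nuclear genes, had 0 of 36 subunits called in Model vs. Control and 4 in MUS vs. Control. There Ndufb9 was higher (1.48 ± 0.40, adjusted p = 0.0367, limma). Ndufa12 (-1.75 ± 0.27, adjusted p = 0.00643, limma), Ndufb11 (-1.25 ± 0.37, adjusted p = 0.0490, limma) and Ndufv3 (-1.17 ± 0.29, adjusted p = 0.0273, limma) were lower. Complex II had 0 of 4 called in each comparison. These counts stand against 17.3% of all genes called in Model vs. Control and 24.4% in MUS vs. Control.

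Among 26 tested assembly factors of complexes III, IV and V, 4 rose and 1 fell in Model vs. Control. The same 5 genes were called in MUS vs. Control, which shares the Control libraries. Of all genes tested, 17.3% were called in Model vs. Control and 24.4% in MUS vs. Control. The 5 of 26 are near the first share and below the second, so the counts do not set this list apart. Sco1 and Cox17, which bring copper to complex IV, had log2 fold changes of 1.83 ± 0.29 (SE, adjusted p = 0.00915, limma) and 0.83 ± 0.22 (SE, adjusted p = 0.0401, limma) in Model vs. Control. Cox18, which inserts a complex IV subunit into the membrane, had 1.32 ± 0.25 (SE, adjusted p = 0.0157, limma), and Coa5 had 1.54 ± 0.33 (SE, adjusted p = 0.0232, limma). Atpif1, the inhibitor of ATP hydrolysis by ATP synthase, fell, with 11.5 and 5.46 FPKM in Control, 3.29 and 1.97 in Model, with 0.826 and 0.897 in MUS. Its log2 fold change was -1.33 ± 0.35 (SE, adjusted p = 0.0411, limma) in Model vs. Control and -2.27 ± 0.35 (SE, adjusted p = 0.00638, limma) in MUS vs. Control. In these lists 0 genes were called in MUS vs. Model.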

How the data were processed

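Libraries were made from poly-A-selected RNA with random-primed cDNA, and no strand marking is described per the labels. The authors deposited 1 table of FPKM per gene and library. The methods name RSEM for quantification, while the submitters' processing notes name HISAT2, featureCounts 1.5.0-p3 and GRCm39. Gene positions matched GENCODE M21 on GRCm38 for 98.3% of 54495 shared identifiers, and for 42 of the 44 members. FPKM times gene length was a whole multiple of 1 step per library (tolerance 0.1 steps), which gave back the fragments per gene.

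The model was fitted by limma 3.58.1 in R 4.3.3 (lmFit, contrasts.fit, eBayes with trend) to log2(FPKM + 1). It held 9794 genes, those averaging 1 FPKM or more, and the 6 libraries as 3 groups. Fold changes are on that scale and understate the change of low genes. The fit has 3 residual and 4.04 prior degrees of freedom. Adjustment was by Benjamini-Hochberg over all genes tested, and a gene was called at an adjusted p of at most 0.05. Tables were made with pandas 2.3.3 and NumPy 2.4.6 (Python 3.11.15), and figures with Matplotlib 3.10.9. Groups came from the treatment labels. The labels give the replicate number as the batch, so the numbers pair the libraries. The replicate differences of 2 groups correlated across genes with r = 0.12 (Control and Model), 0.14 (Model and MUS) and -0.09 (Control and MUS). The fit has no block, as the methods state none, and the block was an alternative. The fit was tested on simulated data.

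The members, gene lists and motifs were chosen with earlier results of these data known. Values with errors are given for every called member and for the 3 highest and 3 lowest log2 fold changes per comparison. Other members are given by FPKM and counts. Named genes of the other lists were called unless the text says otherwise. Apart from cell markers, they are given by FPKM or by log2 fold change with its error. GC content is the mean over a gene's protein-coding GENCODE M21 transcripts. GC correction removed each library's loess curve on GC. Shared 50-base stretches of the members were counted against all M21 transcripts. Of the 29 promoters, 25 had the start within a GENCODE transcript of the gene.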

Additional observations from a re-analysis of the deposited data

How the results depend on the processing

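The number of members called in MUS vs. Model was 0 under every alternative tried. In Model vs. Control, against 0, it was 4 when scaled by the recovered fragments (28.4% of all genes). It was 1 (Atp5k) with gene-length correction and the replicate block together (18% of all genes), and it also changed with the library left out. In MUS vs. Control it was 6, and became 0 with no filter on low values, where 40 members were tested and 1.55% of all genes were called. It was 10 with only the 2 groups compared (26.7% of all genes). It also changed with the library left out, as did the share of all genes called. The replicate block alone changed no member's call in the 3 comparisons. GC correction, GC correction with the block, and GC with gene-length correction were all chosen after seeing the data. In MUS vs. Control they gave 5, 6 and 5 calls, against 21.2%, 20.9% and 24.4% of all genes.

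The median member log2 fold change minus that of all genes was 0.29 in Model vs. Control and -0.15 with quantile normalization, and between -0.16 and 0.66 with a library left out. In MUS vs. Model it was -0.08, and between -0.49 and 0.33 with a library left out. In MUS vs. Control it was 0.20, and moved to -0.0395 with quantile normalization, 0.0017 with a minimum of 5 FPKM and 0.31 with GC and gene-length correction, and lay between 0.15 and 0.37 with a library left out. None of the members called in a comparison, or among its 3 highest or 3 lowest log2 fold changes, changed direction there under an alternative. Other members did, as given for Atp5a1, Atp5b and Uqcrfs1 in MUS vs. Control. Of the alternative values of those named members in MUS vs. Control, 108 kept their side of the threshold, 36 lost the call and 3 gained it. The causes were not tested. With 2 libraries per group, 3 residual degrees of freedom and 1 uneven pair in Model, an absent call says little about a member, and low members such as Uqcr11 rest on few fragments.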
